A study of Mus musculus with 39 samples.

Results

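Type I interferon response genes are genes that cells switch on after a type I interferon has bound to its receptor. The genes described here are a list of 35, given by symbol, out of 28023 genes in each of 2 expression tables. All 35 were found in both tables, and all 35 passed the filter for testing in each set, a level of 1 TPM or more in 4 or more libraries. TPM, the unit of the tables, is transcript abundance corrected for length and scaled to a fixed total in each library.

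The study gave wild-type C57BL/6 mice a faecal microbiota transplant (FMT) and asked how their MCA-205 tumours, a fibrosarcoma line of the same strain, looked under anti-PD-1, an antibody against an inhibitory receptor of T cells. The stool, labelled HV, belonged to a treatment of 6 days with CZA in one arm and with CZA and DAV132 in the other. CZA is given as an abbreviation only, and DAV132 is named in the series title as an adsorbent directed to the colon. Tumour cells were placed under the skin 2 weeks after the transplant, and at a tumour size of 25 to 35 mm2 the mice received 250 µg of anti-PD-1 or an isotype control, 4 times at intervals of 3 days, with tumours taken 2 days after the last dose. The first run of the experiment is the source of 19 libraries that carry the label bulk tumour. Its repeat, from the same FMT samples, is the source of 20 libraries of CD8+ T cells, which were sorted out of the tumours. The 4 groups of each set were CZA with isotype, CZA with anti-PD-1, CZA+DAV132 with isotype and CZA+DAV132 with anti-PD-1, with 5 libraries each, except that the bulk tumour set has 4 of CZA+DAV132 with isotype. Every mouse thus carried an MCA-205 tumour and an FMT of stool from an arm with CZA, and the labels give no age and no group without CZA.

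Type I interferons are made when sensors detect foreign or misplaced nucleic acid. They bind the receptor IFNAR, whose kinases activate STAT2, which works with IRF9 in a complex that enters the nucleus and binds interferon-stimulated response elements beside the target genes. The targets block viral replication, tag or degrade proteins and RNA, and feed back on the pathway itself, and in tumours the same genes are known as a readout of interferon in T cells, myeloid cells and cancer cells.

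The promoters show what many of the genes share. The RefSeq table of promoters (build GRCm38.p6, 250 bases before to 50 after each gene's start) held 26 of the 35 genes, and Dhx58, Zbp1, Oas2, Usp18, Mx1, Mx2, Ifi27, Rtp4 and Parp14 were not in it. The core of the interferon-stimulated response element is GAAANNGAAA, or TTTCNNTTTC on the other strand. It was found in a promoter of 14 of these 26 genes (53.8%), against 1079 of 27025 genes of the table (3.99%). Matches of the same motif may overlap. The 8 stretches printed here were chosen because, apart from Ifit1, they belong to genes whose values are described below and because 2 pairs of them show near-identical copies. They are written in the direction of the gene, with the matched bases in capitals, and lie at chr4:156200855-156200916 for Isg15, chr8:71537567-71537622 for Bst2, chr5:120907526-120907565 for Oas1a and chr5:120887614-120887651 for Oas1g, all on the minus strand, and at chr10:128270256-128270305 for Stat2, chr19:34640765-34640833 for Ifit1, chr19:34583353-34583436 for Ifit3 and chr19:34607749-34607832 for Ifit3b, all on the plus strand.
Isg15: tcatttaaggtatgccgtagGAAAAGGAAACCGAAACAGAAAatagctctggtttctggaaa
Bst2: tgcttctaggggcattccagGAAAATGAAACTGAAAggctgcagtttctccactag
Oas1a: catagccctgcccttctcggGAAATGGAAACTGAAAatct
Oas1g: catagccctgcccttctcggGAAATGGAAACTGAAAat
Stat2: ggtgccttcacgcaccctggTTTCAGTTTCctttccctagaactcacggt
Ifit1: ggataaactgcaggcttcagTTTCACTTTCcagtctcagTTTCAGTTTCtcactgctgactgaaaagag
Ifit3: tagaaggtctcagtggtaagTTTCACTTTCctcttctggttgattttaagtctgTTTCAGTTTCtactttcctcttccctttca
Ifit3b: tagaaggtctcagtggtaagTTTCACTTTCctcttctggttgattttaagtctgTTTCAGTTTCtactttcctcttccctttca
Isg15 holds 3 overlapping matches and Bst2, Oas1a and Oas1g hold 2 each. The stretches of Ifit3 and Ifit3b are the same in all 84 bases. A match describes letters in a promoter and is not a measured binding site. The transcripts of these pairs are also alike: of all stretches of 31 bases in the GENCODE M21 transcripts, 61.8% of those of Ifit3 occur in Ifit3b and 68.7% of those of Oas1a occur in Oas1g. The split of reads within each pair is therefore uncertain.

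In levels, which TPM makes comparable between genes, the list spanned more than 2 orders of magnitude in both sets. Among the effectors, Ifi27, a small membrane protein of mitochondria, had the highest median of the list in the sorted CD8 T cells, 200.7 TPM (range 31.8 to 284), followed by Bst2 (tetherin, which holds budding virus at the cell surface) at 178 TPM and the exonuclease Isg20 at 157.5 TPM. Among the sensors, Zbp1, which senses unusual nucleic acid structures, stood at 126 TPM, Ddx58 (RIG-I, a sensor of viral RNA) at 30.7 TPM, Dhx58 (a regulator of RIG-I) at 8.54 TPM and Ifih1 (MDA5, another RNA sensor) at 2.78 TPM.

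Isg15, a ubiquitin-like modifier, had a median of 99.1 TPM, above Usp18, which removes it from proteins, at 19.7 TPM, and the ligase Herc6, at 6.36 TPM. The transcription factors Irf7, Irf9 and Stat2 had medians of 29.2, 20.0 and 5.68 TPM. In the IFIT family, whose proteins bind viral RNA, medians ran from 5.26 TPM for Ifit3b to 25.4 TPM for Ifit3. The OAS family, which makes the signal that activates RNase L, was low, from 0.587 TPM for Oas1g to 7.71 TPM for Oas1a. Only Oas1g (2 libraries) and Ifi44 (1 library) were listed at 0 anywhere in the CD8 set.

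In the libraries labelled bulk tumour the order began in the same way, with Ifi27 at a median of 140.2 TPM, but Ddx58 followed at 102 TPM and Bst2 at 95.1 TPM. Trim30a, an interferon-induced ubiquitin ligase, had a median of 84.7 TPM there and 22.3 TPM in the CD8 set, and Dhx58 32.9 and 8.54 TPM. The tables may have been normalised separately, so these differences between sets were not tested. Within sets, neighbours in the order had ranges that overlapped widely, as the plot of medians and ranges shows.

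**Figure D1:**
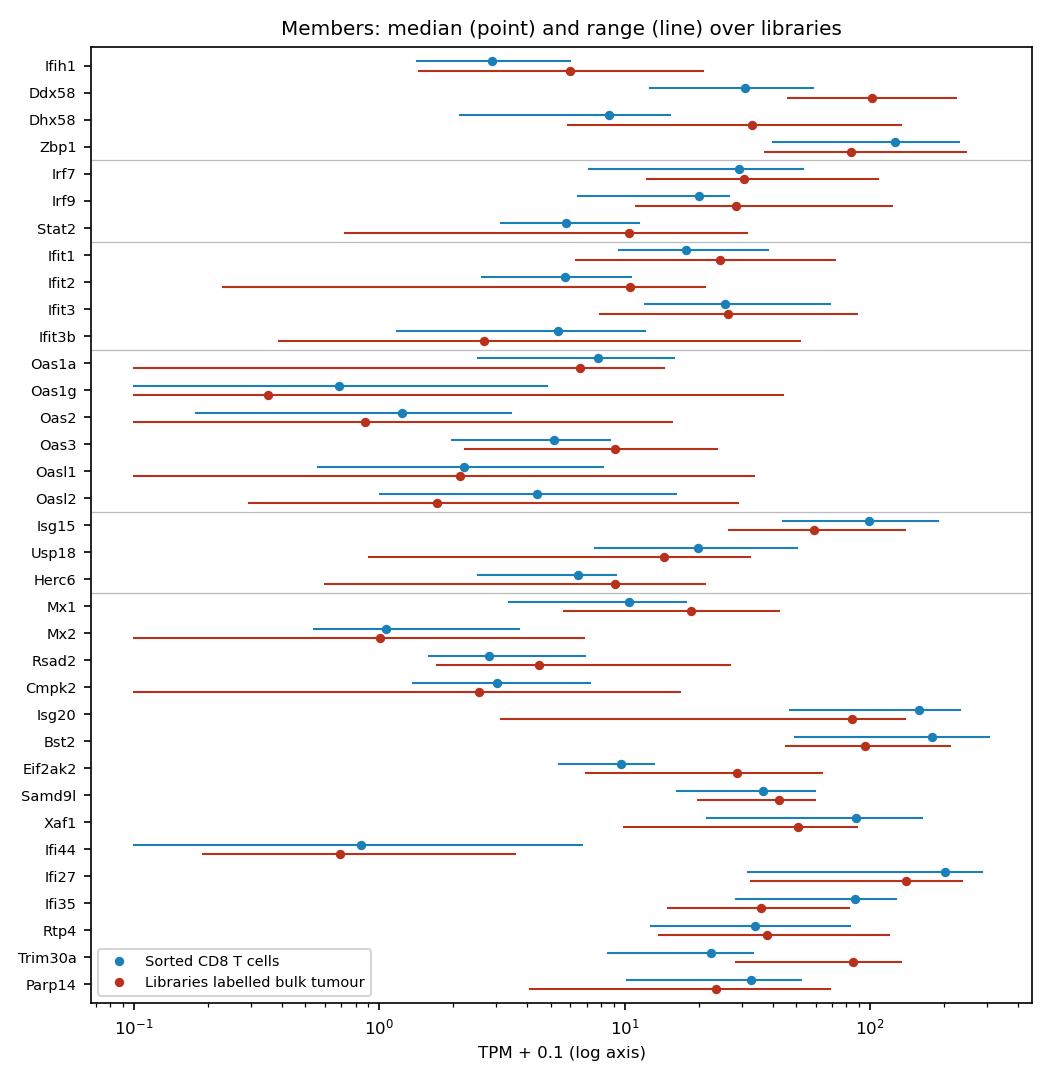
Median TPM (points) and range over libraries (lines) of the 35 genes in the sorted CD8 T cells (blue, 20 libraries) and the libraries labelled bulk tumour (red, 19 libraries), on a log axis after adding 0.1, with grey lines between roles. Ifi27 has the highest median in both sets, 200.7 and 140.2 TPM, and the OAS family, Mx2 and Ifi44 lie at the low end, with the wider ranges in the bulk tumour set.

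The values behind these levels carry limits that hold throughout. TPM keeps no read counts, so it is unknown how deeply each value was sequenced. The labels do not tie a library to its own mouse, so p-values reflect only how much these libraries differ from each other, which may be partly technical, and the arms differ in a stool that the libraries do not replicate. The libraries labelled bulk tumour held much T cell RNA and little matrix RNA, with medians of 351.5 TPM for Cd8a and 13.0 TPM for Col1a1, against 268 and 3.39 TPM in the CD8 set, so this defining marker of fibrosarcoma and stroma was low in libraries labelled as whole tumour. Some libraries stood apart through predicted genes that hold satellite or simple repeats: these held 7.72% to 53.4% of TPM in the CZA+DAV132 libraries of the CD8 set given anti-PD-1, where libraries 16 and 19 are rich in them, and 1.57% to 5.04% in those given isotype. The share was 0.117% to 11.1% in the CD8 CZA isotype group, highest in library 1, and 2.68% to 9.68% in the CZA anti-PD-1 group. In the bulk tumour set these predicted genes summed to 500500 TPM in library T026 and to 132500 TPM in T985, of CZA with isotype. In these mixed samples, fewer cells of a type and less RNA per cell cannot be told apart.

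Single libraries carried much of the variation in the list. The mean of log2(TPM + 1) over the 35 genes was 4.23 ± 0.33 (SD, n = 5) in the CZA isotype group of the CD8 set, 3.88 ± 0.30 (SD, n = 5) with anti-PD-1 in that arm, 3.87 ± 0.26 (SD, n = 5) in the CZA+DAV132 isotype group and 3.62 ± 0.58 (SD, n = 5) with anti-PD-1 in that arm. Library 6 was the highest of its CZA anti-PD-1 group for 25 of the 35 genes, while it was highest for 18.3% of all genes tested. Library 20 was the highest among the CZA+DAV132 libraries given anti-PD-1 for 32 of the 35, against 49.7% of all genes. Library 19, the richest in repeats, was the lowest of that group for 23 of them, against 68.3% of all genes. With median-ratio scaling, library 6 was highest for 23 of the 35 (20.4% of all genes) and library 20 for 19 (18.7%), while library 19 was lowest for 2 (18.5%).

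Low libraries of the isotype groups were library 1, the lowest in the CZA group for 28 of the 35 genes (41.4% of all genes), and library 12, the lowest in the CZA+DAV132 group for 20 (10.8% of all genes). With median-ratio scaling these were 16 (16.6%) for library 1 and 24 (14.2%) for library 12. In the bulk tumour set, T029 was the highest of the CZA+DAV132 libraries given anti-PD-1 for 24 of the 35 genes (35.9% of all genes), and for 16 (22.2%) with median-ratio scaling. There the group means were 3.98 ± 0.29 (SD, n = 5), 4.01 ± 0.25 (SD, n = 5), 3.87 ± 0.27 (SD, n = 4) and 4.01 ± 0.48 (SD, n = 5), in the order of groups given above.

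**Figure D2:**
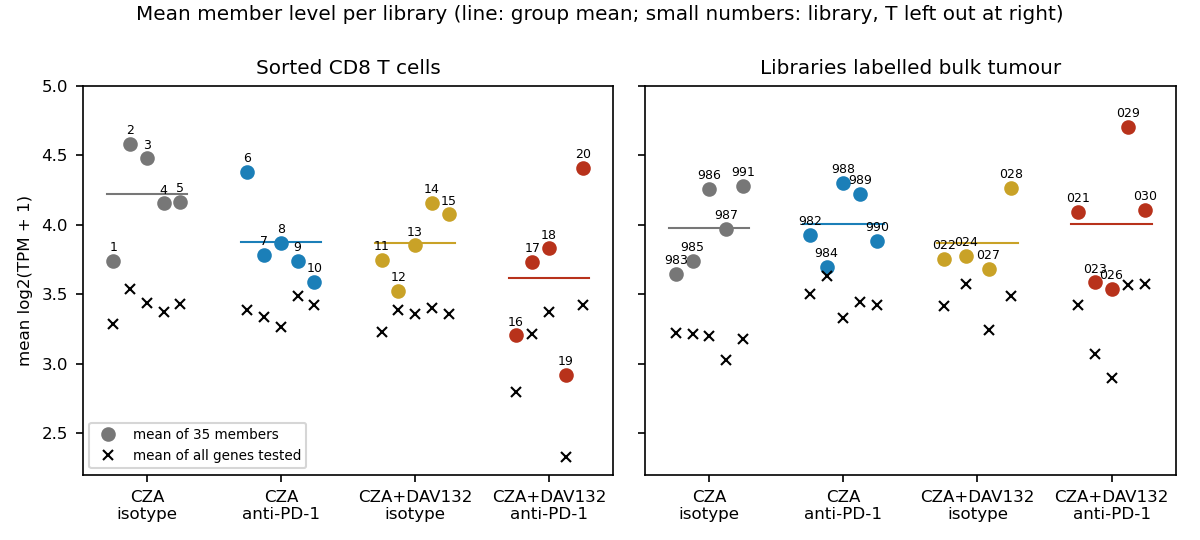
Mean log2(TPM + 1) of the 35 genes in each library (points, labelled by library) and of all genes tested (crosses), with the mean of each group as a line. Libraries 6, 20 and T029 lie above the rest of their groups, at 4.38, 4.41 and 4.71, and library 19 lies lowest, at 2.92, where the mean of all genes is also lowest.

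In the sorted CD8 T cells, the comparison of anti-PD-1 with isotype in the CZA+DAV132 arm asked how the T cells changed under the antibody when the stool had also met DAV132. Of the 35 genes, 3 were called lower and none higher, all 3 among the effectors: Ifi27, Ifi35 and Bst2. None of the 4 sensors, 3 transcription factors, 4 IFIT genes, 6 OAS genes or 3 genes of the ISG15 system passed. A share of 19.4% of all genes tested was called lower here and 4.12% higher, so 3 of 35 called lower is no more than the background. The median change of the list was -0.25 on the log2(TPM + 1) scale, on which all changes are given, against -0.34 over all genes tested.

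Ifi27 (ENSMUSG00000064215, GRCm38 chr12:103434211-103440239) was measured at 199, 221.5, 219, 213 and 255.5 TPM in the isotype libraries of this arm. With anti-PD-1 it was measured at 63.4, 100.1, 126, 31.8 and 142 TPM. All 5 anti-PD-1 libraries lay below all 5 isotype libraries, as was the case for 12.1% of all genes. The mean was 221.6 ± 20.8 (SD, n = 5) TPM with isotype and 92.6 ± 45.2 (SD, n = 5) TPM with anti-PD-1, and the log2 change was -1.42 ± 0.33 (SE), with an adjusted p of 0.00867 by limma. Ifi27 fell in each of the 29 alternative analyses, with log2 changes from -1.62 to -0.85 and adjusted p-values from 0.00183 to 0.0440 by limma, and without the repeat-rich libraries 16 and 19 its change was -0.86.

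Ifi35, a protein that modulates interferon signalling and can act as a danger signal outside cells, stood at 87.7, 88.9, 82.2, 86.5 and 103 TPM with isotype. With anti-PD-1 it stood at 28.9, 66.7, 66.2, 28.4 and 85.5 TPM. Libraries 16 and 19 gave the lowest values of Ifi35, library 20 overlapped the isotype range, and the change was -0.83 ± 0.29 (SE; limma adjusted p = 0.0413). Bst2 was measured at 179, 161, 234.5, 224 and 305 TPM with isotype, and at 143, 132, 123, 49.3 and 187 TPM with anti-PD-1. Library 20 again reached into the isotype range, and the change of Bst2 was -0.88 ± 0.32 (SE; limma adjusted p = 0.0490).

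The calls of Ifi35 and Bst2 depended on scaling and on libraries. With median-ratio scaling, which sets libraries to a common median ratio over genes, their changes were -0.35 (limma adjusted p = 0.105) and -0.40 (limma adjusted p = 0.204), and without libraries 16 and 19 they were -0.30 for Ifi35 and -0.57 for Bst2, neither called. Leaving out a single library ended the call of Ifi35 in 8 of 20 cases, libraries 10 to 16 and 19, and that of Bst2 in 16 of 20, all but libraries 1, 6, 8 and 20. Without library 20, 8 genes of the list were called, all lower, where 29.5% of all genes were called lower, so this count is no more than the background either.

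**Figure D3:**
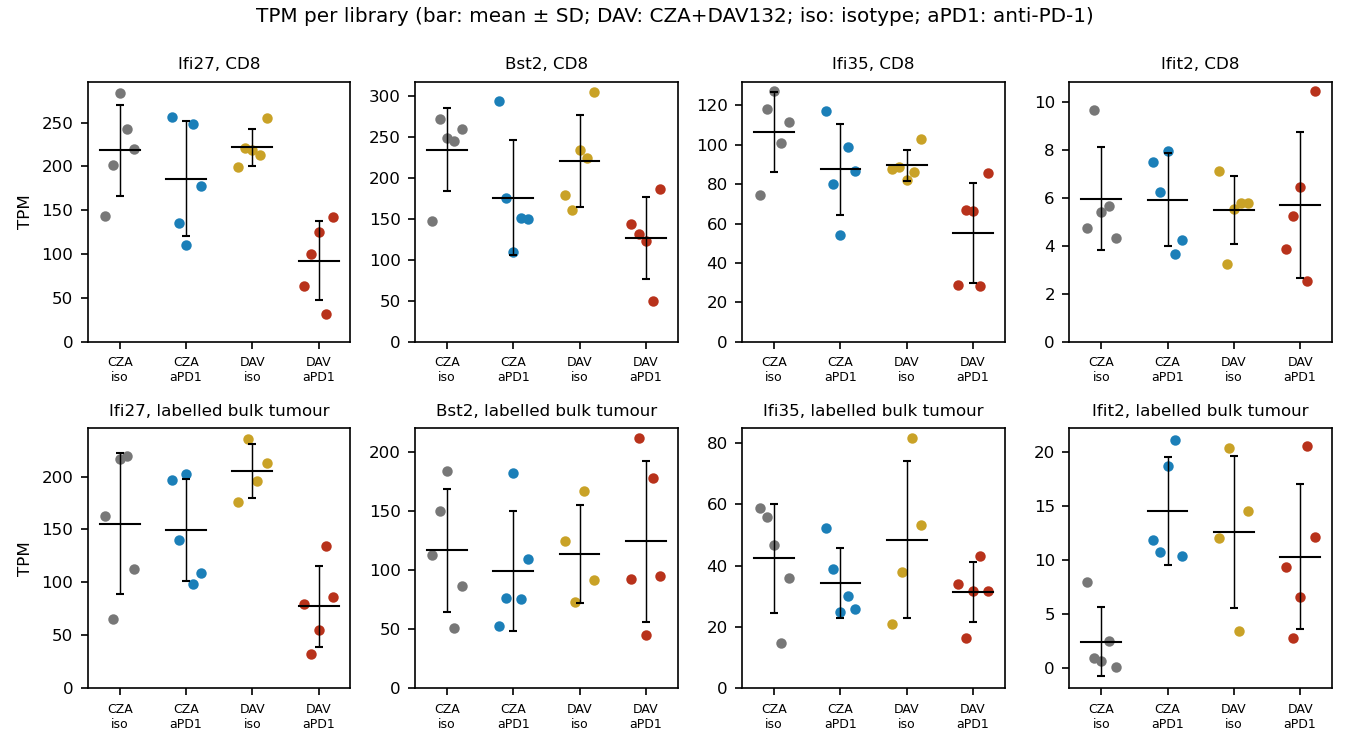
TPM of Ifi27, Bst2, Ifi35 and Ifit2 in each library (points) by group, with the mean and SD, in the sorted CD8 T cells (top) and the libraries labelled bulk tumour (bottom). The 5 anti-PD-1 libraries of the CZA+DAV132 arm lie below all isotype libraries of that arm for Ifi27 in both sets, and Ifit2 is low in the CZA isotype group of the bulk tumour set.

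The other genes the list turns on did not pass in this comparison. Isg15 stood at 95.6, 61.1, 103, 136 and 114 TPM with isotype and at 67.1, 96.6, 69.5, 44.1 and 151.5 TPM with anti-PD-1. The groups of Isg15 overlapped, and the difference was -0.32 ± 0.34 (SE; limma adjusted p = 0.525). Irf7, which amplifies interferon production, was measured at 23.9, 23.6, 23.2, 30.2 and 38.4 TPM with isotype and at 7.04, 32.0, 30.3, 11.2 and 42.8 TPM with anti-PD-1. Libraries 16 and 19 held the low values of Irf7, and its difference was -0.41 ± 0.36 (SE; limma adjusted p = 0.437).

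Ifit3 stood at 24.2, 16.7, 23.2, 38.0 and 49.6 TPM with isotype and at 13.4, 19.4, 24.9, 12.0 and 51.7 TPM with anti-PD-1 (difference -0.41 ± 0.40, SE; limma adjusted p = 0.491). Stat2, a subunit of the factor that drives these genes, stood at 4.92, 4.18, 4.23, 6.56 and 5.25 TPM with isotype and at 4.41, 8.35, 9.44, 3.04 and 11.3 TPM with anti-PD-1. For Stat2 libraries 17, 18 and 20 lay above the isotype range and libraries 16 and 19 within or below it, with a positive difference of 0.36 ± 0.27 (SE; limma adjusted p = 0.361).

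Scaling moved the direction of the list here. Median-ratio scaling raised the median change of all genes tested from -0.34 to -0.003, and that of the 35 genes from -0.25 to 0.15. Under it 5 genes were called higher: Stat2 (0.76, limma adjusted p = 0.00586), Eif2ak2 (PKR, a kinase that halts translation; 0.80, limma adjusted p = 0.00750), Samd9l (an inhibitor of translation; 0.73, limma adjusted p = 0.0190), Parp14 (an ADP-ribosyltransferase; 0.73, limma adjusted p = 0.0238) and Ddx58 (0.58, limma adjusted p = 0.0332). Ifi27 was the 1 gene called lower (-0.95, limma adjusted p = 0.00183). The share of all genes called higher was 11.4% under this scaling, and 14.1% were called lower. On the values as deposited none of the 5 passed, with differences from 0.12 for Ddx58 to 0.36 for Stat2 and Eif2ak2, and without libraries 16 and 19, on those values, Ddx58, Stat2 and Parp14 were called higher, as were 4.14% of all genes.

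Position within the list went with transcript length. Of the 17 genes whose longest coding transcript is shorter than the median of 2656 bases, all 17 had a negative difference in this comparison (median -0.51). Among the 18 genes at or above that length, 11 had a negative difference (median -0.07). Among all coding genes tested the medians on either side of that length were -0.62 and -0.20, with 86.1% and 69.9% negative, so the same tilt was present outside the list. The genes called lower, Ifi27, Bst2 and Ifi35, have longest coding transcripts of 977, 792 and 1362 bases. With median-ratio scaling 10 of the 17 and 1 of the 18 were negative, with medians of -0.15 and 0.32, against -0.23 and 0.15 over all coding genes. The part of transcript length or RNA quality in the changes was not tested.

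**Figure D4:**
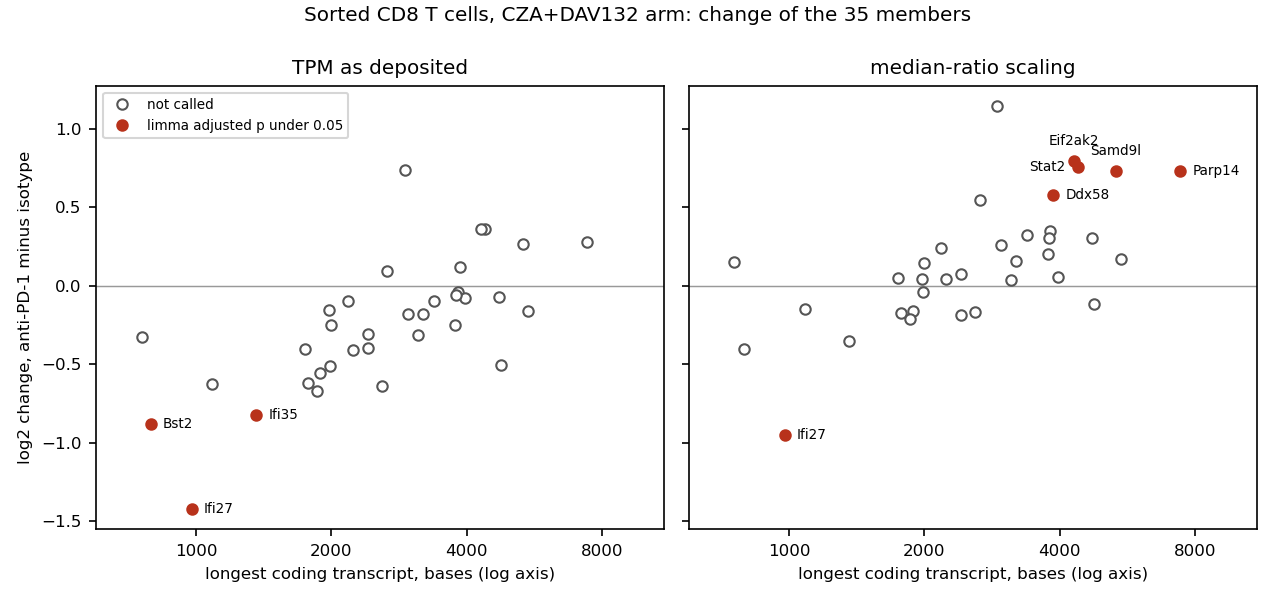
Log2 change with anti-PD-1 in the CZA+DAV132 arm of the sorted CD8 T cells against the longest coding transcript of each of the 35 genes (log axis), on TPM as deposited (left) and after median-ratio scaling (right), with filled points for genes called by limma. Short genes lie lower than long ones on both sides, and Ifi27 alone is called lower on both.

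Markers of other cells moved in the same comparison. Of 13 macrophage and monocyte markers, 6 were called lower (Apoe, C1qc, Cd14, Cd68, Ly6c2 and Mrc1), with a median change of -1.35, and their summed level was 1778 to 3224 TPM with isotype and 348 to 1295 TPM with anti-PD-1. Most of that sum was Ly6c2, which activated CD8 T cells also express. The other 12 markers summed to 74.0 to 749.7 TPM with isotype and 52.3 to 279 TPM with anti-PD-1, so these ranges overlapped. In the CD8 set Adgre1, a defining macrophage marker, was listed at 0 in 1 of 20 libraries and had a median of 0.760 TPM, while Lyz2 had a median of 136 TPM. Of 10 CD8 T cell markers 1 was called lower (Cd2), with a median change of -0.66, and their summed level was 3675 and 3702 TPM in libraries 16 and 19, against 10130 to 13520 TPM with isotype. Both tested NK cell markers (Klrb1c and Klre1, median -1.29) and 3 of 7 dendritic cell markers (Batf3, Ccl17 and Ccl22) were called lower, while 2 of 3 B cell markers (Ebf1 and Pax5, median 1.45) were called higher. Of 5 tested markers of plasmacytoid dendritic cells, which are known as interferon producers, 1 was called higher (Siglech). The part of RNA from these cells in the lower Ifi27, Ifi35 and Bst2 was not tested.

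In the CZA arm, the same comparison of anti-PD-1 with isotype in sorted CD8 T cells gave no call among the 35 genes, where 0.0155% of all genes were called. Even so, 29 of the 35 differences were negative, against 52.5% of all genes, and 7 genes had an unadjusted p under 0.05 (5.11% of all genes did), all with negative differences: Oasl1, Oasl2, Oas1g, Ifi44, Ifit3b, Cmpk2 and Rtp4. The 6 OAS genes and the 4 IFIT genes all had negative differences, with medians of -0.84 and -0.59, while the sensors stood at -0.08 and the transcription factors at 0.11. The median over the list was -0.30, against -0.02 over all genes.

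Ifit3b and Rtp4, a chaperone of receptors that is strongly induced by interferon, had the smallest p among genes with a mean of at least 5 TPM, without passing. Ifit3b stood at 5.74, 11.7, 9.72, 5.93 and 7.85 TPM with isotype and at 8.36, 4.44, 5.67, 2.46 and 1.08 TPM with anti-PD-1, a difference of -0.90 ± 0.38 (SE; limma adjusted p = 0.879). Rtp4 stood at 35.5, 77.0, 82.4, 48.5 and 52.0 TPM with isotype and at 76.6, 25.5, 30.1, 27.4 and 23.6 TPM with anti-PD-1, a difference of -0.76 ± 0.36 (SE; limma adjusted p = 0.972). For Rtp4, 4 of the 5 anti-PD-1 libraries lay below every isotype library and library 6 lay among the highest.

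Ifi27 in that arm was measured at 143.5, 202, 284, 243 and 219.6 TPM with isotype and at 257, 136, 110.1, 248 and 178 TPM with anti-PD-1. The groups overlapped, with a difference of -0.27 ± 0.33 (SE; limma adjusted p = 0.997). The difference between the arms in the anti-PD-1 effect on Ifi27 was -1.15 ± 0.47 (SE) and did not pass (limma adjusted p = 0.290). In the test of that interaction no gene of the list, and 0% of all genes, was called.

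Bst2 in the CZA arm stood at 147, 272, 249, 246 and 260.3 TPM with isotype and at 294, 176, 109, 151 and 150.2 TPM with anti-PD-1 (-0.46 ± 0.32, SE; limma adjusted p = 0.997). The groups overlapped through library 6, the highest given anti-PD-1, and library 1, the lowest given isotype.

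Isg15 in this arm stood at 73.3, 150.1, 158, 99.9 and 126 TPM with isotype and at 189.5, 99.9, 98.3, 63.8 and 55.9 TPM with anti-PD-1 (-0.34 ± 0.34, SE; limma adjusted p = 0.997). Ifit3 stood at 25.9, 68.3, 67.9, 37.8 and 39.6 TPM with isotype and at 64.7, 24.8, 27.8, 20.3 and 16.9 TPM with anti-PD-1. For both genes library 6 held the high value among the anti-PD-1 libraries and library 1 the low value among the isotype libraries.

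Irf7 stood at 26.6, 53.2, 47.3, 29.9 and 36.8 TPM with isotype and at 42.7, 28.1, 23.99, 28.5 and 24.7 TPM with anti-PD-1 (-0.36 ± 0.36, SE; limma adjusted p = 0.997). Stat2 stood at 5.52, 10.2, 5.97, 4.26 and 4.25 TPM with isotype and at 5.69, 7.05, 7.89, 5.67 and 6.47 TPM with anti-PD-1 (0.15 ± 0.27, SE; limma adjusted p = 0.997). The groups overlapped for both of these transcription factors.

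The macrophage markers had a median change of -1.34 in the CZA arm of the CD8 set too, with none of the 13 called. Averaged over the arms, Ifi27 alone of the list was called, lower by limma (-0.85 ± 0.24, SE; limma adjusted p = 0.0263), where 10.8% of all genes were called lower and 2.11% higher. A further 10 genes of the list had an unadjusted p under 0.05 in that average, all with negative differences, so that 11 of 35 stood under it, as did 29.1% of all genes. Among them were Bst2 (-0.67, limma adjusted p = 0.0525), Rtp4 (-0.71, limma adjusted p = 0.0664) and Oas1a (-0.62, limma adjusted p = 0.0780). Without library 20 the count in the average was 10, all lower (18.7% of all genes), without library 1 or 6 it was 8 or 5, all lower, and without library 3, 7, 8 or 15 it was 0. The share of all genes is given for the fit without library 20 only, so the other counts are not set against the background. Beside this, 12 of 13 macrophage markers were called lower in the average, and the part of these cells in it was not tested.

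The FMT arms were then compared within each antibody in the sorted CD8 T cells. Under isotype, no gene of the list was called, where 0% of all genes were called, but 32 of the 35 differences were negative, against 60.0% of all genes, with a median of -0.33 against -0.06. Oas1a, a sensor of double-stranded RNA, stood at 7.14, 15.8, 15.7, 11.5 and 14.4 TPM in the CZA arm and at 6.71, 4.16, 8.55, 9.47 and 13.7 TPM in the CZA+DAV132 arm (-0.58 ± 0.33, SE; limma adjusted p = 1.00). Ifit3 stood at 25.9, 68.3, 67.9, 37.8 and 39.6 TPM in the CZA arm, above 3 of the 5 values of the CZA+DAV132 arm (-0.65 ± 0.40, SE; limma adjusted p = 1.00).

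This comparison and that of the antibodies in the CZA arm share the CZA isotype libraries, of which libraries 2 and 3 held most of the high values. In that group library 2 was the highest for 18 of the 35 genes (28.4% of all genes) and library 3 for 14 (26.1%), and with median-ratio scaling for 12 (18.3%) and 18 (23%). The negative differences of the OAS and IFIT genes in both comparisons therefore share these 5 libraries and are not independent of each other.

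Under anti-PD-1, none of the 35 genes passed between the arms, where 0.0386% of all genes were called. Ifi27 came nearest, with 257, 136, 110.1, 248 and 178 TPM in the CZA arm against 63.4, 100.1, 126, 31.8 and 142 TPM in the CZA+DAV132 arm. The groups overlapped, and the difference was -1.10 ± 0.33 (SE; limma adjusted p = 0.0684). Herc6 stood at 8.53, 6.28, 8.19, 6.35 and 6.94 TPM in the CZA arm and at 2.96, 5.36, 4.86, 2.43 and 8.00 TPM in the other, with 4 of 5 libraries below all of the CZA arm (-0.61 ± 0.23, SE; limma adjusted p = 0.0878). Leaving out library 20 brought 7 of the 35 genes under the threshold, all lower, but it also brought 28.9% of all genes under it as lower. With median-ratio scaling Ifi27 stood at -0.57 (limma adjusted p = 0.114). Averaged over the antibodies, no gene of the list and 0% of all genes were called between the arms, with 7 of the 35 genes and 17.4% of all genes at an unadjusted p under 0.05.

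In the libraries labelled bulk tumour, the 35 genes spread more within groups, and none passed in any of the 7 comparisons by limma, among them the interaction, where 0.045% of all genes were called, anti-PD-1 averaged over the arms (1.07%) and the arms averaged over the antibodies (0%). At an unadjusted p under 0.05 there were 2 to 5 of the 35 genes in each, where 7.58% to 13.1% of all genes were. Ifit2, which binds viral RNA and can promote cell death, differed most among the pairwise comparisons, between antibodies in the CZA arm. Ifi27 again had the lowest p of the list between antibodies in the CZA+DAV132 arm.

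**Figure D5:**
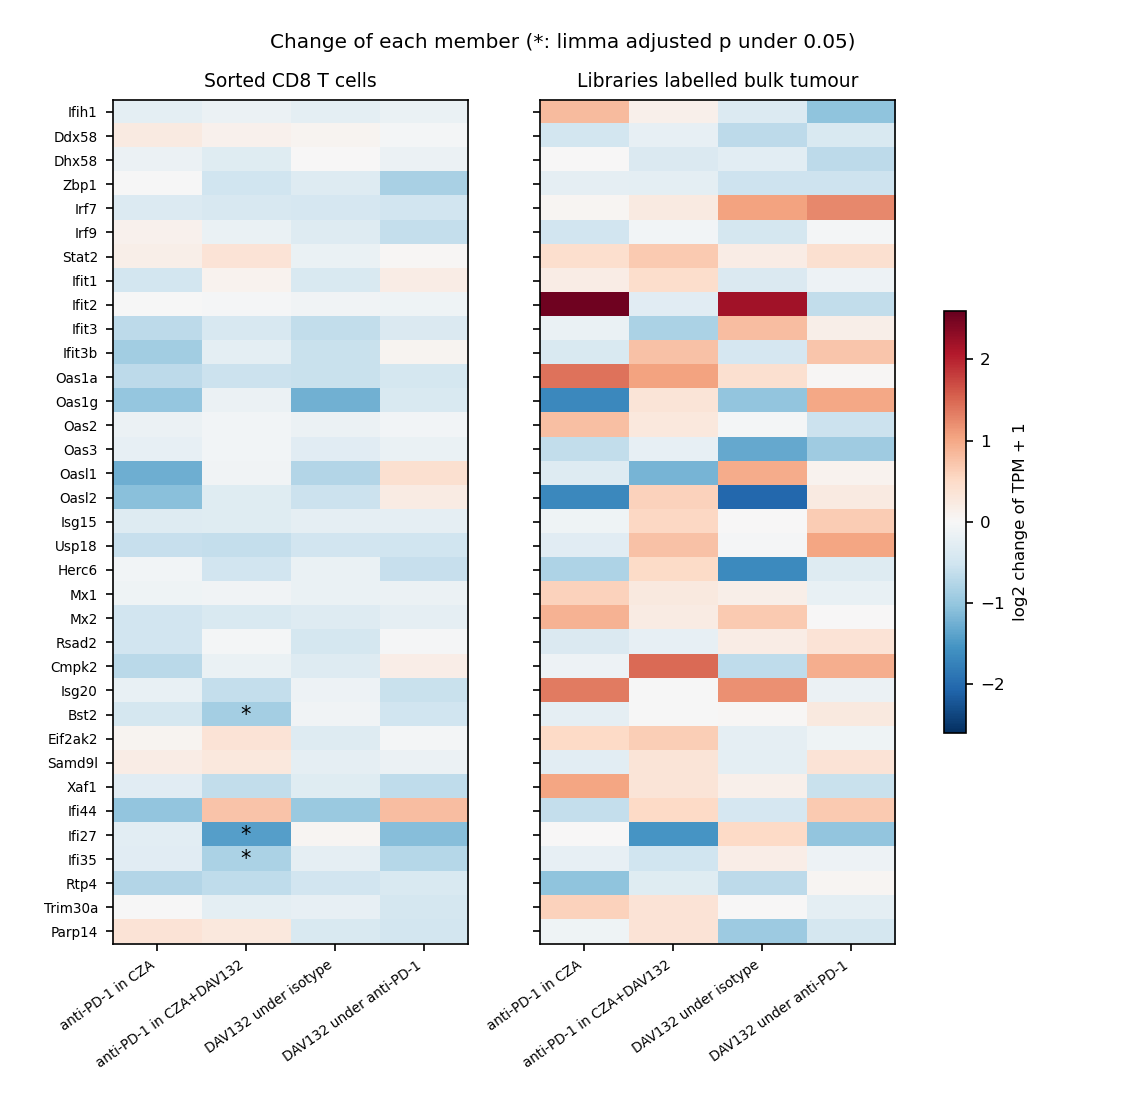
Log2 change of each of the 35 genes (colour, red higher and blue lower) in the 4 pairwise comparisons of each set, with stars for the 3 changes called by limma. In the sorted CD8 T cells most cells are pale blue and Bst2, Ifi27 and Ifi35 are starred, while in the libraries labelled bulk tumour Ifit2 reaches 2.53 and no gene is starred.

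For anti-PD-1 in the CZA arm of the bulk tumour set, Ifit2 was measured at 7.98, 0.926, 0.713, 2.52 and 0.131 TPM with isotype (mean 2.45 ± 3.21, SD, n = 5) and at 11.9, 10.8, 18.7, 21.1 and 10.4 TPM with anti-PD-1 (mean 14.6 ± 4.98, SD, n = 5). All anti-PD-1 libraries lay above all isotype libraries, as for 2.09% of all genes. The change of Ifit2 was 2.53 ± 0.58 (SE) and missed the threshold (limma adjusted p = 0.0636), in a comparison where 0.285% of all genes passed. It passed with a pseudocount of 0.1 and when T027 or T983 was left out, with adjusted p-values from 0.0173 to 0.172 over 27 alternatives.

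Of the other 3 IFIT genes, which lie on the same chromosome, none had an unadjusted p under 0.05 there. Ifit3 stood at 14.6, 7.85, 35.1, 88.4 and 28.1 TPM with isotype and at 16.4, 22.8, 12.4, 35.0 and 34.1 TPM with anti-PD-1 (-0.18 ± 0.54, SE; limma adjusted p = 0.919). Oasl2, an OAS-like protein, stood at 2.52, 0.651, 28.8, 11.2 and 26.4 TPM with isotype and at 1.62, 0.880, 3.83, 2.43 and 1.09 TPM with anti-PD-1, also with overlap (-1.68 ± 0.73, SE; limma adjusted p = 0.329).

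Isg15 in the CZA arm of the bulk tumour set stood at 55.5, 49.0, 67.3, 50.8 and 43.2 TPM with isotype and at 36.7, 26.6, 80.5, 69.0 and 48.6 TPM with anti-PD-1 (-0.12 ± 0.35, SE; limma adjusted p = 0.917). Bst2 stood at 112, 150.1, 184, 50.7 and 86.8 TPM with isotype and at 52.6, 76.0, 182, 75.6 and 109 TPM with anti-PD-1 (-0.23 ± 0.43, SE; limma adjusted p = 0.860). Stat2 ranged widest with isotype, at 0.626, 3.77, 11.1, 6.61 and 31.4 TPM, and stood at 10.3, 6.77, 8.40, 13.2 and 8.23 TPM with anti-PD-1 (0.44 ± 0.66, SE; limma adjusted p = 0.822). None of these 3 genes separated the antibodies.

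In the sorted CD8 T cells Ifit2 ran from 4.31 to 9.68 TPM with isotype and from 3.65 to 7.99 TPM with anti-PD-1 in the CZA arm (-0.01 ± 0.29, SE; limma adjusted p = 0.998).

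For anti-PD-1 in the CZA+DAV132 arm of the bulk tumour set, Ifi27 stood at 176, 236, 195 and 213 TPM with isotype (mean 205 ± 25.3, SD, n = 4) and at 79.6, 32.6, 54.7, 134 and 86.3 TPM with anti-PD-1 (mean 77.4 ± 38.1, SD, n = 5). The groups did not overlap, as for 4.43% of all genes in this direction. The change of Ifi27 was -1.53 ± 0.39 (SE; limma adjusted p = 0.0891), where 0.24% of all genes were called, and without T029 or with array weights it passed. Between the arms under anti-PD-1, the difference of Ifi27 from the 197, 140.2, 202, 98.8 and 109 TPM of the CZA arm was -1.03 ± 0.37 (SE; limma adjusted p = 0.455), with overlap. The level of Ifi27 in the CZA+DAV132 libraries given anti-PD-1 was the lowest of the 4 group means in both sets. The labels describe separate experiments with the same stool samples. This group also held the highest repeat sum of each set, 533900 TPM in library 19 and 500500 TPM in T026. It held the highest mitochondrial sums too, 158100 TPM in library 16 and 104700 TPM in T023, whose repeat sums differed (180500 and 270.3 TPM). Whether the sets share tumours was not tested, so the low Ifi27 is not shown to be an independent repeat.

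In that comparison Isg15 stood at 61.4, 29.5, 52.6 and 84.2 TPM with isotype and at 85.8, 59.1, 66.1, 138 and 60.2 TPM with anti-PD-1, with overlap (0.53 ± 0.37, SE; limma adjusted p = 0.716). Bst2 stood at 124.5, 72.7, 167 and 91.3 TPM with isotype and at 92.2, 212, 45.2, 177 and 95.1 TPM with anti-PD-1 (0.00 ± 0.45, SE; limma adjusted p = 1.00). The groups of Bst2 overlapped, where those of Ifi27 did not overlap.

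Ifit3 stood at 49.6, 26.1, 75.6 and 42.3 TPM with isotype and at 18.5, 18.2, 18.1, 78.8 and 19.8 TPM with anti-PD-1 (-0.83 ± 0.58, SE; limma adjusted p = 0.718). For Ifit3, 4 of the 5 anti-PD-1 libraries lay below all isotype libraries and T029 above them. Stat2 stood at 18.9, 9.33, 1.06 and 11.5 TPM with isotype and at 13.0, 10.4, 7.76, 21.9 and 13.7 TPM with anti-PD-1, with overlap (0.68 ± 0.70, SE; limma adjusted p = 0.843). Of the 35 genes 21 had a positive difference, with a median of 0.26 against -0.15 over all genes. The macrophage markers had a summed level of 821 to 1331 TPM with isotype and 327 to 703.5 TPM with anti-PD-1, again mostly Ly6c2, and a median change of -0.74, with none of 13 called, and their part in the level of Ifi27 was not tested.

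Between the arms in the bulk tumour set none of the 35 genes passed. Ifit2 and Herc6 came nearest under isotype, Ifi27 (given above) and then Irf7 under anti-PD-1, and Irf7 in the average. Irf7 under anti-PD-1 stood at 13.6, 12.6, 17.3, 47.0 and 39.4 TPM in the CZA arm and at 80.7, 30.6, 30.01, 107 and 59.4 TPM in the CZA+DAV132 arm (1.24 ± 0.49, SE; limma adjusted p = 0.526), where 0% of all genes were called. Under isotype Irf7 stood at 24.2, 28.7, 12.3, 14.0 and 38.9 TPM against 45.3, 18.1, 80.1 and 66.1 TPM (1.05 ± 0.52, SE; limma adjusted p = 0.479). The groups overlapped in both comparisons, and between antibodies Irf7 differed by 0.05 ± 0.49 (SE; limma adjusted p = 0.978) in the CZA arm and by 0.24 ± 0.52 (SE; limma adjusted p = 0.946) in the other. Averaged over the antibodies the difference of Irf7 was 1.15 ± 0.36 (SE; limma adjusted p = 0.375).

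Herc6 under isotype stood at 13.8, 20.5, 10.1, 19.4 and 21.1 TPM in the CZA arm and at 8.99, 5.61, 0.5003 and 8.48 TPM in the CZA+DAV132 arm, without overlap, as for 0.39% of all genes in this direction (-1.65 ± 0.57, SE; limma adjusted p = 0.280). Ifit2 under isotype was 2.18 ± 0.62 (SE) higher on the log2 scale in the CZA+DAV132 arm, at 12.0, 20.4, 3.45 and 14.5 TPM, against the low CZA values given above (limma adjusted p = 0.171), where 0.113% of all genes were called. Library names in this set run from T982 to T991 for CZA and from T021 to T030 for CZA+DAV132. The arm and anything that goes with these names therefore cannot be told apart. In the CD8 set, library numbers run from 1 to 5, 6 to 10, 11 to 15 and 16 to 20 over the 4 groups. There, arm and antibody cannot be told apart from anything that goes with this numbering.

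Upstream of the list, transcripts of the interferons themselves were nearly absent from the tables' values. Of 14 type I interferon genes found in the tables, none reached the filter in the CD8 set and 1, Ifna16, did in the bulk tumour set, where its median was 0.168 TPM. Ifnb1 was listed at 0 in 19 of 20 libraries of the CD8 set and in all 19 of the bulk tumour set. The receptor chains were present, with medians of 20.3 TPM for Ifnar1 and 50.8 TPM for Ifnar2 in the CD8 set.

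Of 8 genes of the receptor and its JAK-STAT signalling, 1 was called in the CD8 set with anti-PD-1 in the CZA+DAV132 arm: Ifnar2 fell from 54.0 ± 6.97 (SD, n = 5) to 30.1 ± 12.4 (SD, n = 5) TPM (-0.92 ± 0.29, SE; limma adjusted p = 0.0268). Ifnar1 did not pass (-0.30, limma adjusted p = 0.466). Of 10 tested genes that induce interferon, 1 was called, Tmem173 (STING, the adaptor that relays cytosolic DNA), which was lower by limma (-0.85 ± 0.30, SE; limma adjusted p = 0.0432). In this comparison 19.4% of all genes tested were called lower, so 1 of 8 and 1 of 10 are no more than the background. Averaged over the arms, Ifnar2, Tmem173 and Irf5, a factor that induces interferon in myeloid cells, were called lower, at -0.64, -0.72 and -0.73. None of these genes was called in the bulk tumour set in any of the 7 comparisons.

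Interferon-gamma also induces several of the 35 genes, so a list of GTPases and Irf1 that it induces was set beside them. Of 15 such genes, the GTPases of the GBP and IRG families and Irf1, 1 was called higher in the CD8 set with anti-PD-1 in the CZA+DAV132 arm and none lower: Gm4951, from 1.56 ± 0.60 (SD, n = 5) to 3.85 ± 1.35 (SD, n = 5) TPM (0.91 ± 0.25, SE; limma adjusted p = 0.0142). Of all genes tested, 4.12% were called higher in this comparison, so 1 of 15 is near the background. The call of Gm4951 is given on the values as deposited only. The median change of those 15 was 0.18, against -0.25 for the 35 type I response genes and -0.34 for all genes tested. This difference between lists was not tested.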

How the data were processed

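Expression in 20 libraries of tumour CD8+ T cells and 19 libraries labelled bulk tumour was deposited by the authors as TPM, in separate tables. The submitters' processing notes name kallisto 0.45 and GRCm38, and the annotation is not given in the sources used here. Reads that match several near-identical transcripts are split among them by that program. RNA was depleted of ribosomal RNA and sequenced from strand-specific libraries, per the labels' protocols. Gene positions and transcript lengths come from GENCODE M21, promoters from RefSeq.

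Each table was analysed alone. Genes that reached 1 TPM in 4 or more libraries (12942 in the CD8 set, 13326 in the other) were put on the log2(TPM + 1) scale, on which changes of low genes come out too small, and fitted with limma 3.58.1 in R 4.3.3, with a coefficient per group for 4 groups, an empirical Bayes trend and 7 comparisons. P-values were two-sided, Benjamini-Hochberg adjusted over all genes tested, and called under 0.05. The genes of the list and the other lists were chosen with earlier results of these data known.

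Values in every library were given for the genes called in a pairwise comparison (at most 4), or else for the 2 with the smallest p whose mean was 5 TPM or more, and for Irf7, Isg15, Ifit3, Bst2 and Stat2 within the antibody comparisons. Other genes given by name were chosen after their values were seen. The alternatives changed the pseudocount to 0.1, dropped the filter or raised it to a mean of 5 TPM, and used median-ratio scaling, TPM rescaled without repeat and mitochondrial entries, a fit of only the groups compared, array weights, each library left out and CD8 libraries 16 and 19 left out. Median-ratio scaling together with leaving out libraries 16 and 19, or T026, was chosen after seeing the data. The values of 1 gene of the signalling list are not reported here.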

Additional observations from a re-analysis of the deposited data

Results flagged for a closer look

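Of 88 groups of values checked, 5 held a library far from the others of its group, and chance alone gives about 1 in 20 groups. Bst2 stood at 147 TPM in library 1 of the CZA isotype group of the CD8 set, where the others ran from 246 to 272 TPM. Ifit3b stood at 12.0 TPM in library 20, of CZA+DAV132 with anti-PD-1, where the others ran from 2.35 to 3.74 TPM. Rtp4 stood at 76.6 TPM in library 6 of the CZA anti-PD-1 group, where the others ran from 23.6 to 30.1 TPM. In the bulk tumour set, Ifit3 stood at 78.8 TPM in library T029, of CZA+DAV132 with anti-PD-1, where the others ran from 18.1 to 19.8 TPM. The mean log2(TPM + 1) of the 35 genes was 4.27 in library T028 of the CZA+DAV132 isotype group of that set, where the others ran from 3.68 to 3.78.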

How the results depend on the processing

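In the CD8 set with anti-PD-1 in the CZA+DAV132 arm, 3 of the 35 genes were called on the values as deposited. The count was 1 without the filter and in a fit of only the groups compared, 6 with median-ratio scaling (5 higher), 5 with array weights (3 higher), 4 each on rescaled TPM, without libraries 16 and 19 and with that scaling and these left out (3 higher each), and leaving out 1 library gave 1 to 8 (8 without library 20). Between the arms under anti-PD-1 it was 0, with 1 under the stricter filter and 0 to 7 when a library was left out (7 without library 20). Averaged over the arms anti-PD-1 gave 1, against 0 without the filter, 3 under the stricter filter, 7 with median-ratio scaling (5 higher), 2 on rescaled TPM (1 higher), 7 with array weights (3 higher), 4 without libraries 16 and 19 (3 higher), 5 with both (3 higher), and 0 to 10 when a library was left out (10 without library 20). In the bulk tumour set the count was 0, with 1 in the CZA arm at a pseudocount of 0.1 and 0 to 1 when a library was left out (T027 or T983), and 1 in the CZA+DAV132 arm with array weights and 0 to 1 when a library was left out (T029). The filter changes which genes share the adjustment, and the cause of the other shifts was not tested. For anti-PD-1 in the CZA+DAV132 arm of the CD8 set, 4.12% of all genes were called higher and 19.4% lower as deposited. With median-ratio scaling these shares were 11.4% and 14.1%. Counts given here without such a share are not read as results about the list. None of the genes called on the deposited values changed direction under these alternatives. No paired analysis was possible because the groups share no replicate numbers. The depth behind TPM is unknown, so what depth limits could not be computed.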
